A study of Saccharomyces cerevisiae with 4 samples.

Results

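The genes described here are 44 ribosome biogenesis factors of Saccharomyces cerevisiae, chosen by name from the 7132 features of the deposited read table. Their values were not used in the choice, but earlier results of these data were known. The 44 genes encode 3 proteins of the box C/D small nucleolar ribonucleoprotein (snoRNP), 4 proteins of the box H/ACA snoRNP, 6 subunits of UTP-A and 6 subunits of UTP-B. They also encode 12 other factors of the small subunit, 2 factors needed for both subunits and 11 factors of the large subunit. The genes lie on 12 chromosomes, and all 44 were matched to the reference annotation by systematic name and are among the 6140 genes that passed the filter on low counts. RNA was measured in haploid spores of an SK1-background diploid in which the CUP1 promoter drives Ime1, the regulator that starts meiosis, and in which mCherry and hygromycin resistance are inserted at the MATa allele. Sporulation was induced with copper at 30 °C, and after 7 days the spores were freed by enzyme, sorted by mCherry fluorescence and frozen. Red spores (RFP_positive) and non-red spores (RFP_negative) were each collected in 2 replicates, for which the sporulation and the sort were repeated, and libraries were made from 100 ng of total RNA with an mRNA kit. All 4 libraries therefore share the diploid, the inducer, the time and the temperature, and differ in color and in replicate number. Spores with the mCherry insertion are a spores by design, but in the strain field of the labels only 1 library, the non-red one of replicate 1, carries MATa and the other 3 carry MATalpha, so libraries are called by color here.

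Ribosomes are assembled in the nucleolus, where RNA polymerase I transcribes a long ribosomal RNA (rRNA) precursor that is modified, cut and folded with the help of many assembly factors. SnoRNPs guide methylation and pseudouridylation of the precursor, UTP-A and UTP-B are among the first complexes to bind it and build the small subunit processome around the U3 snoRNA, and a separate set of factors matures the large subunit. In growing yeast the genes for these factors are switched on and off together with nutrient supply, largely through 2 promoter elements called PAC and RRPE, and their demand is low in dormant spores and rises when a spore germinates.

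The libraries held between 25493760 and 45697828 reads assigned to features, and the members had from 563 reads (NOP58 in red replicate 2) to 16780 reads (UTP20 in non-red replicate 1). The hygromycin resistance gene, inserted at MATa, followed the sort labels, at 1989 and 2415 CPM (reads of a gene scaled by library size, as the standard unit of RNA-seq counts) in the red libraries and 98.6 and 37.7 CPM in the non-red ones. Of the 8 spore markers, 7 passed the filter and 0 passed the false discovery rate (FDR) of 0.05 between replicates, with log2 fold changes that were negative for 3 (SSP2 -0.89, SMA1 -0.35 and DIT1 -0.09) and positive for 4, and SPS4 ran from 0.22 to 22.3 CPM. SPS100, the most abundant, a spore wall gene, stood at 2151 and 2297 CPM in red and non-red replicate 1 and at 2768 and 3238 CPM in replicate 2 (adjusted p = 0.121, edgeR). OSW1, another spore wall gene, which did not pass the filter, had under 1 read in 3 libraries and 122 reads in red replicate 2. The 10 markers of dividing cells were all detected and summed to 562 to 733 CPM, with 0 of the 10 past the FDR between replicates. CTS1 made up the largest share of that sum, at 191 to 290 CPM. Of the 10, 7 had a negative log2 fold change of replicate 2 over replicate 1, the lowest CLN1 at -3.61, with a median of -0.65. EGT2 (0.61), CTS1 (0.35) and SCW11 (0.21) had positive ones. By color the markers' median log2 ratio was -0.04 in red and -0.47 in non-red spores. Their sum went from 639 to 733 CPM in red and from 705 to 562 CPM in non-red spores. The part of these markers in the members' difference was not tested. RNA encoded in the mitochondrial genome took 0.0646% and 0.0715% of reads in replicate 1 and 0.00666% and 0.00275% in replicate 2, and its part in any difference between replicates was not tested. Reads were counted over all cells of a sort, so fewer cells with a transcript and less of it per cell cannot be told apart.

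The promoters of the members share letters. The genes were chosen by name, but PAC and RRPE were searched as known elements of such genes, so their shares are a description and no independent result. In the 300 bases from 250 before to 50 after each start codon, PAC was searched as GATGAG and the core of RRPE as AAAATTTT, both on either strand. PAC and RRPE do not overlap in any window printed here. PAC was found in 42 of the 44 member promoters (95.5%) and in 20.4% of all 6001 protein-coding promoters of the R64 reference. RRPE was found in 33 members (75%) and in 9.03% of all promoters, and both motifs were found in 32 members (72.7%) and in 4.38% of all promoters. UTP22 was the member with neither, UTP15 held RRPE without PAC, and 10 members held PAC without RRPE. A match is a description of the letters in strain S288C, on which R64 is based, and neither the SK1 sequence nor binding was examined.

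The windows printed here are those of 10 members that fell between the replicates, at least 1 from each group other than UTP-B, so that the spacing and strand of the motifs can be seen. Each reads 5′ to 3′ along the gene's own strand, with the pair of motifs closest to each other and 10 bases on either side, every match within the window in capitals and the rest in lower case, and was taken from the RefSeq copy of R64. CTCATC is PAC read on the other strand, and AAAATTTT is its own reverse complement. Within their windows RRP5 and HAS1 hold a second PAC that shares a base with the first, and RRP5 holds a second RRPE. Not wholly inside the windows, and so not in capitals, are a further RRPE of NOP56, NOP58, CBF5 and UTP20 and further PAC matches of UTP5 and NOP2. The further RRPE of NOP58 is cut by the edge of its window.
NOP56 (chrXII:545960-546004, plus strand): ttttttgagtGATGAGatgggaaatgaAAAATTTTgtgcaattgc
NOP58 (chrXV:898458-898492, minus strand): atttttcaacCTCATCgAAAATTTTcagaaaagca
CBF5 (chrXII:505980-506018, plus strand): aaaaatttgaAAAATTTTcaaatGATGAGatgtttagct
GAR1 (chrVIII:283408-283445, minus strand): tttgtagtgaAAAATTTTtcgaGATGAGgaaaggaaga
UTP5 (chrIV:1267258-1267303, plus strand): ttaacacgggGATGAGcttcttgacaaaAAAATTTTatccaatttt
UTP20 (chrII:227442-227479, plus strand): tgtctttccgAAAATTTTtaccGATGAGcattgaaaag
RRP5 (chrXIII:731264-731299, minus strand): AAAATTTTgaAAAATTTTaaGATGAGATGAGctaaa
HAS1 (chrXIII:851682-851767, minus strand): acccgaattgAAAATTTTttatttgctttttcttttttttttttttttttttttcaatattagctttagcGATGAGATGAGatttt
NOP2 (chrXIV:510388-510424, plus strand): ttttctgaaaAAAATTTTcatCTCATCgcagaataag
ERB1 (chrXIII:370595-370645, minus strand): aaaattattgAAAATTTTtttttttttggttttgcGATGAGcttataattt

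Among the 31 members with both motifs upstream of the start codon and near enough to be shown in 1 window, RRPE of the closest pair lay farther from the start codon than PAC in 25. With every upstream pair counted, RRPE was farther in all pairs of 22 members and nearer in all pairs of 2, and the other 7 members held pairs in both orders. The gap between the closest motifs ran from 1 base in NOP58 to 52 bases in HAS1, with a median of 11 bases. PAC began at a median of 127 bases and RRPE at a median of 141 bases before the start codon. Of the windows printed, PAC stands first in those of NOP56, NOP58 and UTP5 and RRPE stands first in the other 7.

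**Figure D1:**
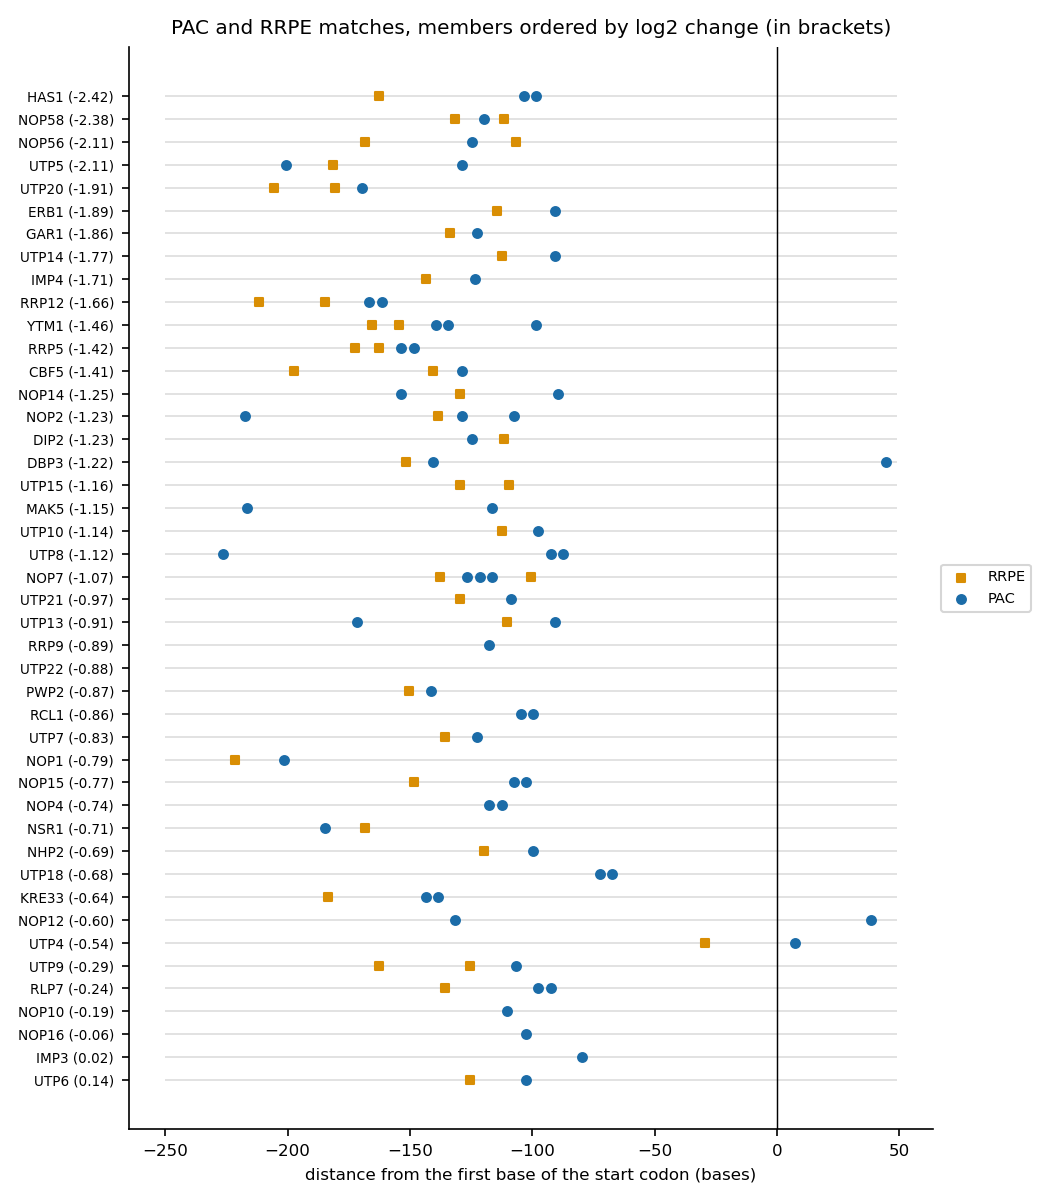
Map of PAC and RRPE matches in the promoters of the 44 members, 1 row per gene, with distance from the start codon in bases on the horizontal axis. Most matches lie upstream of the start codon, with PAC at a median of -127 and RRPE at a median of -141 bases in the windows that hold both.

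Transcript levels of the members were set per kilobase (kb) of coding length, as CPM scaled by the trimmed mean of M values (TMM), and ranked among the 5786 tested genes with a coding length. The middle member stood at percentile 35.9 on the mean of the 4 libraries. By library the middle member stood at percentile 51.1 in red and 52.5 in non-red spores of replicate 1, and at 21.2 and 18.9 in those of replicate 2. In level the median was 72.0 and 72.1 CPM per kb in replicate 1 and 33.0 and 28.7 CPM per kb in replicate 2, so the members lay near the middle of the transcriptome in the first and below it in the second. By group, the H/ACA snoRNP genes had the highest median percentile in every library, from 62.1 to 90.4. The order of the other groups differed between replicates. The C/D snoRNP genes had median percentiles of 78.2 and 80.1 in red and non-red replicate 1, above the large subunit genes (67.3 and 66.9), and of 28.8 and 19.0 in replicate 2, below them (36.3 and 31.9). The UTP-A genes (29.1 and 33.6) and the UTP-B genes (28.9 and 36.2) were the lowest in replicate 1. In replicate 2 the UTP-A genes (13.9 and 13.1) and the pair of genes for both subunits (13.9 and 13.7) were the lowest.

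On the mean over both replicates, the most abundant member per kb was NOP10, which encodes a small H/ACA protein, at 594 ± 140 CPM per kb (SD, n = 4 libraries over both colors and replicates). NHP2, a second H/ACA protein, followed at 213 ± 62.2 CPM per kb, and NSR1, a nucleolin-like protein, at 180 ± 56.0 CPM per kb. GAR1, also of the H/ACA snoRNP, stood at 176 ± 116 CPM per kb. NHP2, NSR1 and GAR1 differ from each other by less than their spread over libraries. The highest gene of each remaining group was NOP1 (172 CPM per kb), the methyltransferase of the C/D snoRNP, NOP15 (174 CPM per kb) for the large subunit, HAS1 (71.5 CPM per kb) among the pair for both subunits, UTP18 (56.5 CPM per kb) in UTP-B and UTP5 (49.8 CPM per kb) in UTP-A. At the other end UTP14, an activator of a processome helicase, stood at 24.9 ± 16.5 CPM per kb, and UTP22, MAK5 and UTP6 stood at 29.0, 29.4 and 30.0 CPM per kb. The neighbors in this lower part of the order also lie within their spread, and the order depends on the replicate. UTP6 was lowest in replicate 1 (28.4 CPM per kb, against 38.2 for UTP14) and UTP14 in replicate 2 (11.6), while GAR1 was second highest in replicate 1 (272 CPM per kb) and at 78.9 CPM per kb in replicate 2. NOP10 was highest in both.

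**Figure D2:**
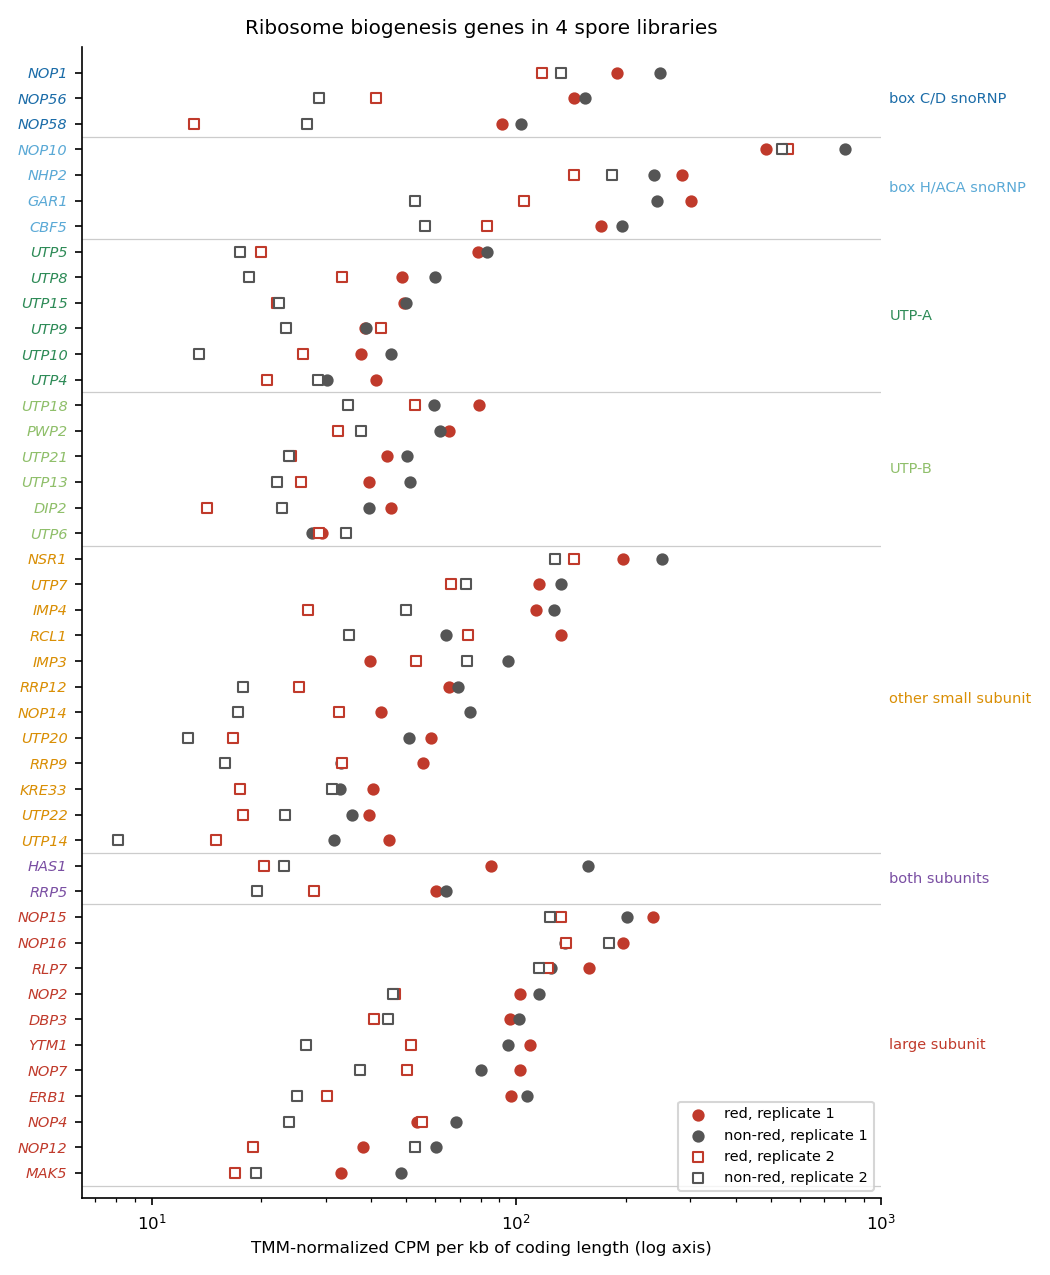
Level of each of the 44 members in each library, in TMM-scaled CPM per kb of coding length on a log axis, with red and non-red spores and both replicates marked. NOP10 is highest at 594 CPM per kb on average, UTP14 is lowest on the mean of the libraries at 24.9, and most replicate 2 points lie to the lower side of the replicate 1 points.

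The comparison of the repeated sporulation asked how far the members differed between replicate 2 and replicate 1, with color kept as a term. Transcripts of 18 of the 44 members (40.9%) fell in replicate 2 and 0 rose at an FDR of 0.05 (edgeR's quasi-likelihood test with Benjamini-Hochberg adjustment over all genes tested). Across all 6140 genes tested, 9.87% were called lower and 8.96% were called higher. The median log2 fold change of the members was -1.02, against -0.02 over all genes, and 42 of the 44 had a negative log2 fold change. At an unadjusted p under 0.05 the members lower in replicate 2 numbered 32, against 15.9% of all genes. With edgeR's likelihood ratio test 28 members were called lower (13.9% of all genes), and with DESeq2 34 were called lower (22.6% of all genes), and the 18 were called by all 3 tests. The libraries of one number come from 1 sporulation, so these p-values measure the spread between color fractions and not between sporulations.

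The same difference was seen in each color. The median log2 ratio of replicate 2 over replicate 1 was -0.99 in red and -1.13 in non-red spores, and 38 members were lower in both colors. Both replicate 2 libraries lay below both replicate 1 libraries for 35 of the 44 members (79.5%), against 31.1% of all genes, and the opposite held for 0 members, against 30.9% of all genes. In sum the 44 members took 0.663% and 0.666% of reads in red and non-red replicate 1, and 0.341% and 0.301% in replicate 2. Of the members, 35 lay in the lowest 25% of all genes ranked by this log2 fold change.

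**Figure D3:**
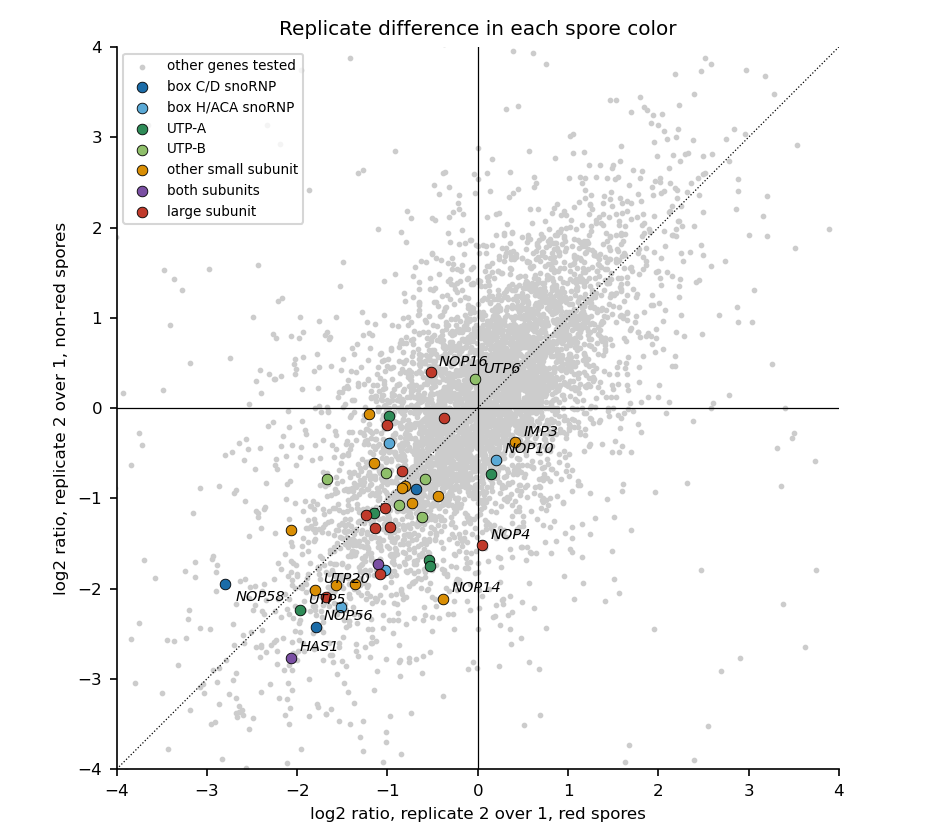
Log2 ratio of replicate 2 over replicate 1 in red spores (horizontal) and in non-red spores (vertical) for the members, colored by group, and for the other genes tested in gray. Of the 44 members 38 lie to the lower left of the origin, with medians of -0.99 in red and -1.13 in non-red spores.

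Among the snoRNP proteins, the C/D pair NOP56 (YLR197W) and NOP58 (YOR310C), which form the scaffold on which the methyltransferase sits, fell the most. NOP56 stood at 218 and 235 CPM in red and non-red replicate 1 and at 62.6 and 43.6 CPM in replicate 2. NOP58 stood at 140 and 158 CPM and then at 20.0 and 40.9 CPM. For both genes every replicate 2 library lay below every replicate 1 library, with log2 fold changes of -2.11 ± 0.31 and -2.38 ± 0.43 (SE over the 2 colors) and adjusted p-values of 0.00171 and 0.00246 in edgeR's quasi-likelihood test. NOP1 (YDL014W), the methyltransferase itself, ran from 187 and 245 CPM to 116 and 131 CPM, a log2 fold change of -0.79 that did not pass (adjusted p = 0.0622, edgeR).

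In the H/ACA snoRNP, which makes pseudouridine, GAR1 (YHR089C) fell from 186 and 150 CPM in red and non-red replicate 1 to 64.9 and 32.7 CPM in replicate 2, with a log2 fold change of -1.86 ± 0.34 (adjusted p = 0.00462, edgeR). CBF5 (YLR175W), the pseudouridine synthase, fell from 248 and 284 CPM to 121 and 81.8 CPM, with a log2 fold change of -1.41 ± 0.38 (adjusted p = 0.00967, edgeR). The replicates did not overlap for either gene. The 2 smaller subunits were not called, NHP2 (YDL208W) with a log2 fold change of -0.69 (adjusted p = 0.173, edgeR) and NOP10 (YHR072W-A) with -0.19 (adjusted p = 0.75, edgeR). NOP10 was at 85.7 and 141 CPM in replicate 1 and at 98.6 and 95.0 CPM in replicate 2, so its replicates overlapped. Differences in change between subunits of a complex were not tested.

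UTP5 (YDR398W) and UTP10 (YJL109C) were the UTP-A subunits past the FDR, 2 of the 6 among the members, with a median log2 fold change of -1.13. NAN1, a UTP-A subunit that is not a member and was listed with the further small subunit factors, had -0.40 and was not called. UTP5 fell from 152 and 161 CPM to 38.6 and 33.9 CPM, without overlap, and its log2 fold change was -2.11 ± 0.14 (adjusted p = 0.00228, edgeR). UTP10, the largest subunit, was at 200 and 241 CPM in replicate 1 and at 138 and 71.7 CPM in replicate 2. Its log2 fold change of -1.14 ± 0.61 was near the threshold (adjusted p = 0.0478, edgeR), with a log2 ratio of -0.53 in red and -1.75 in non-red spores. UTP8 (YGR128C) and UTP15 (YMR093W) had log2 fold changes of -1.12 and -1.16 and missed the FDR, while UTP4 (YDR324C) and UTP9 (YHR196W) had -0.54 and -0.29. In UTP-B, 1 of 6 subunits passed. DIP2 (YLR129W) was at 128 and 112 CPM in replicate 1 and at 40.2 and 64.5 CPM in replicate 2, with a log2 fold change of -1.23 ± 0.44 (adjusted p = 0.0423, edgeR). UTP21 (YLR409C), PWP2 (YCR057C), UTP13 (YLR222C) and UTP18 (YJL069C) had log2 fold changes from -0.98 to -0.68 with adjusted p-values from 0.0522 to 0.153 in edgeR. UTP6 (YDR449C) was the member with the highest log2 fold change, 0.14, at 38.9 and 36.4 CPM in replicate 1 and 38.0 and 45.3 CPM in replicate 2.

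Of the 12 other small subunit genes, 4 passed, UTP20 (YBL004W), RRP12 (YPL012W), UTP14 (YML093W) and IMP4 (YNL075W), and the group's median log2 fold change was -0.89. UTP20, a very large scaffold protein made of helical repeats, had the smallest p of the members. Its level ran from 436 and 381 CPM in red and non-red replicate 1 to 125 and 94.2 CPM in replicate 2, a log2 fold change of -1.91 ± 0.11 (adjusted p = 0.000932, edgeR). RRP12, a repeat protein needed for export of subunits, fell from 241 and 255 CPM to 93.7 and 65.8 CPM, a log2 fold change of -1.66 ± 0.30 (adjusted p = 0.0042, edgeR). Neither gene's replicates overlapped. UTP14 fell from 121 and 85.7 CPM to 40.6 and 21.9 CPM, a log2 fold change of -1.77 ± 0.20 (adjusted p = 0.0123, edgeR). IMP4, which with IMP3 (YHR148W) helps U3 pair with the precursor, fell from 99.2 and 111 CPM to 23.5 and 43.4 CPM, a log2 fold change of -1.71 ± 0.36 (adjusted p = 0.016, edgeR). IMP3, its partner, was at 22.0 and 52.5 CPM in replicate 1 and at 29.3 and 40.3 CPM in replicate 2, with overlap and a log2 fold change of 0.02. The difference between IMP3 and IMP4 was not tested.

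The remaining small subunit genes did not pass. NOP14 (YDL148C), a processome core protein, had the largest gap between colors of all members. It went from 104 to 79.4 CPM in red and from 182 to 42.1 CPM in non-red spores, log2 ratios of -0.38 and -2.11 (adjusted p = 0.0846, edgeR). UTP7 (YER082C) and UTP22 (YGR090W), at log2 fold changes of -0.83 and -0.88, had adjusted p-values of 0.0529 and 0.0797 in edgeR. RCL1 (YOL010W), needed for a cleavage of the precursor, RRP9 (YPR137W), a protein of the U3 snoRNP, and NSR1 (YGR159C) had log2 fold changes of -0.86, -0.89 and -0.71. KRE33 (YNL132W), an acetyltransferase of rRNA, had -0.64, with -1.21 in red and -0.07 in non-red spores.

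Both genes that serve the 2 subunits fell. HAS1 (YMR290C), a DEAD-box RNA helicase, had the lowest log2 fold change of the members, -2.42 ± 0.35 (adjusted p = 0.00147, edgeR), from 130 and 239 CPM in red and non-red replicate 1 to 30.8 and 35.0 CPM in replicate 2. RRP5 (YMR229C), an RNA-binding protein that acts at the branch point of the pathways, fell from 313 and 334 CPM to 145 and 101 CPM, with -1.42 ± 0.31 (adjusted p = 0.00642, edgeR). The replicates did not overlap for either.

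Of the 11 large subunit genes, 5 passed and the median log2 fold change was -1.07. ERB1 (YMR049C), YTM1 (YOR272W) and NOP7 (YGR103W) encode the 3 subunits of 1 assembly complex, and all 3 fell. ERB1 went from 235 and 260 CPM to 73.5 and 60.7 CPM, a log2 fold change of -1.89 ± 0.21 (adjusted p = 0.00203, edgeR). YTM1 went from 151 and 132 CPM to 71.2 and 36.8 CPM and NOP7 from 186 and 146 CPM to 91.4 and 67.8 CPM, with log2 fold changes of -1.46 ± 0.38 and -1.07 ± 0.04 (adjusted p = 0.0163 and 0.0286, edgeR). NOP2 (YNL061W), an rRNA methyltransferase, and DBP3 (YGL078C), a DEAD-box helicase, were the other called genes of this group. NOP2 fell from 190 and 215 CPM to 86.5 and 85.4 CPM, a log2 fold change of -1.23 ± 0.10 (adjusted p = 0.0128, edgeR), and DBP3 fell from 151 and 160 CPM to 64.0 and 70.0 CPM, a log2 fold change of -1.22 ± 0.02 (adjusted p = 0.0193, edgeR). The replicates of all 5 genes were apart. Of those not called, the helicase MAK5 (YBR142W) had a log2 fold change of -1.15 (adjusted p = 0.0621, edgeR) and NOP15 (YNL110C) had -0.77. NOP4 (YPL043W), an RNA-binding protein, was at 110 and 141 CPM in replicate 1 and at 114 and 48.9 CPM in replicate 2, and its non-red library of replicate 2 stood apart from the other 3. NOP12 (YOL041C), RLP7 (YNL002C) and NOP16 (YER002W) had log2 fold changes of -0.60, -0.24 and -0.06.

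All 18 called members had replicates that did not overlap, and 16 of them were at least 2-fold lower in each color. The calls were made on the same 4 libraries, so this adds no support to them. Leaving out 1 library at a time, which leaves the compared term alone in the model, kept 9 of the 18 past the FDR in every fit (UTP20, HAS1, NOP56, ERB1, UTP5, NOP58, RRP12, RRP5 and CBF5), and each of the other 9 lost the call in at least 1 fit. The count of members lower in replicate 2 was 11 without red replicate 1, 22 without red replicate 2, 10 without non-red replicate 1 and 17 without non-red replicate 2. The number of all genes called in either direction moved with it, from 1156 with all libraries to 838, 1340, 623 and 1138 in the same order.

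**Figure D4:**
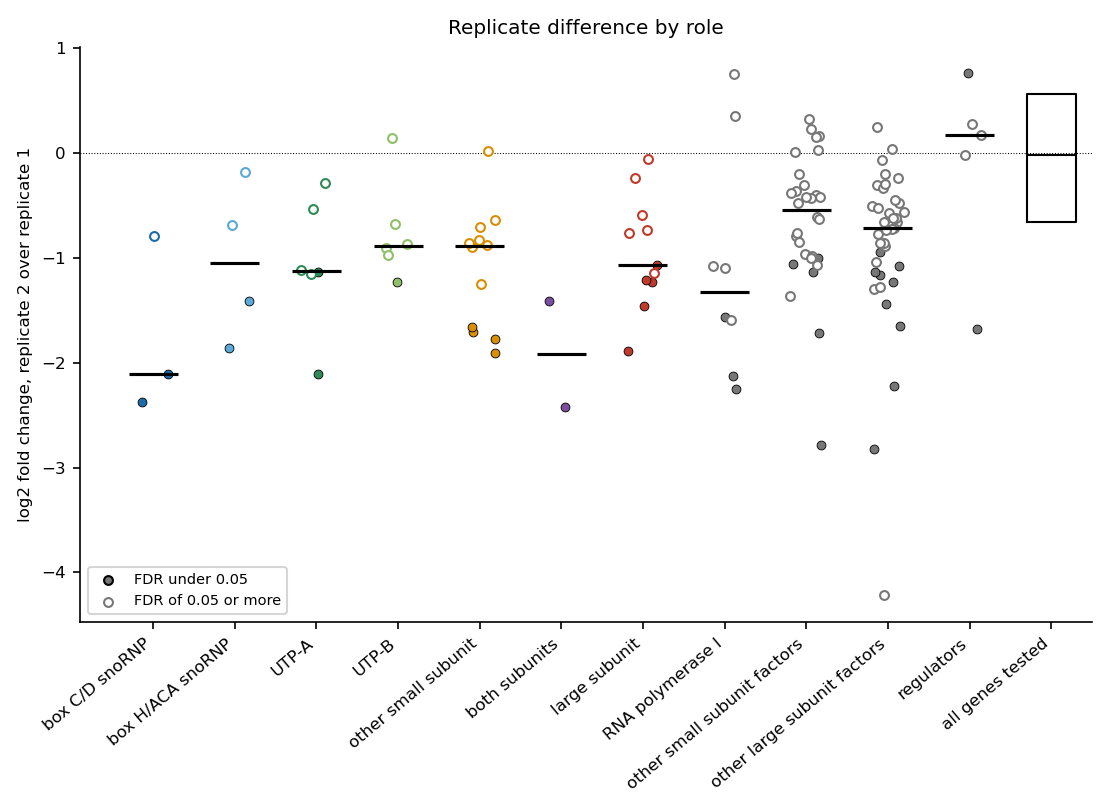
Log2 fold change of replicate 2 over replicate 1 for each gene of the 7 member groups, 3 further pathway lists and the regulators, with genes past the FDR filled, a line at each list's median and, for all genes tested, a box at the interquartile range. Medians of the member groups run from -2.11 in the C/D snoRNP to -0.89 in the other small subunit and UTP-B groups, against -0.02 over all genes tested.

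Other genes of the same pathway were described in the same comparison, in which 9.87% of all genes were called lower. Of 8 RNA polymerase I genes 3 fell (37.5%) and 0 rose, with a median log2 fold change of -1.33. The list holds RRN3, an initiation factor and not a subunit, which had its highest log2 fold change (0.75) and was not called. RPA190, the largest subunit, stood at 441 and 439 CPM in red and non-red replicate 1 and at 97.3 and 87.8 CPM in replicate 2 (log2 fold change -2.25, adjusted p = 0.00046, edgeR), and RPA135, its partner in the catalytic core, at 359 and 333 CPM and then 119 and 115 CPM (-1.57, adjusted p = 0.00242, edgeR). The count was 5 without red replicate 2. Of 30 further small subunit factors 5 fell (16.7%) and 0 rose, with a median of -0.55, among them EMG1, an rRNA methyltransferase (-2.78), and BMS1, a GTPase that works with RCL1 (-1.06). Of 38 further large subunit factors 9 fell (23.7%) and 0 rose, with a median of -0.72, among them REA1, a giant ATPase (-2.23), and SPB1, an rRNA methyltransferase (-1.23). Without red replicate 1 the counts of both lists were 1, and without non-red replicate 1 they were 1 and 4, and the small subunit list had 3 without non-red replicate 2. Of 136 cytosolic ribosomal protein genes, a list added after the members' values were seen, 117 fell (86.0%) and 0 rose, with a median of -1.65, and many of them have near-identical copies between which reads could be split.

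Among 5 regulators of these genes, TOD6, a repressor that binds PAC, fell from 418 and 441 CPM in red and non-red replicate 1 to 146 and 122 CPM in replicate 2 (log2 fold change -1.68, adjusted p = 0.00161, edgeR). STB3, which binds RRPE, rose from 232 and 176 CPM to 422 and 277 CPM (0.76, adjusted p = 0.0454, edgeR). DOT6, SFP1 and SCH9, the other regulators listed, were not called, with log2 fold changes of -0.02, 0.27 and 0.17. The call of STB3 was lost without red replicate 1, red replicate 2 or non-red replicate 1, with adjusted p-values of 0.0881, 0.289 and 0.339 in edgeR, and without the color term (0.0619).

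The change between replicates was set beside the motifs as a description, made after the members' values were seen and with no test. All 18 members that fell are among the 32 with both motifs, whose median log2 fold change was -1.22. The 11 members without RRPE had a median of -0.74 with 0 called, from -1.15 for MAK5 to 0.02 for IMP3. Neither UTP15 nor UTP22, the members without PAC, was called. Among the other genes tested, 48 of 227 with both motifs were called lower (21.1%, median log2 fold change -0.52), as were 54 of 268 with RRPE alone (20.1%, -0.36). With PAC alone 83 of 889 were called lower (9.34%, median -0.02), and with neither 392 of 4351 were (9.01%, median 0.05). The 227 with both motifs include genes of the further pathway lists described above. Among them are 28 large subunit factors, 23 small subunit factors and 7 RNA polymerase I genes. A relation to the motifs outside this pathway was not tested. Across the members the log2 fold change had a Spearman correlation of -0.33 with coding length, -0.06 with GC percent and -0.10 with the level in replicate 1, where all 44 values come from the same 4 libraries. Over the 5786 genes with a coding length these were 0.02, -0.16 and -0.17.

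The comparison of the colors asked whether spores that inherit MATa with the insertion and those that do not differ in these transcripts, with the replicate number as a block. With edgeR's quasi-likelihood test 0 of the 44 members passed the FDR (0.0163% of all genes, 1 of 6140), and 3 had an unadjusted p under 0.05 (2.96% of all genes). Like the hygromycin resistance gene, the inserted mCherry differed, at 7814 and 14450 reads in red replicates 1 and 2 and at 552 and 0 in non-red ones. With 1 gene called in all, the test missed at least 1 inserted marker, so the lack of calls does not show that the members are equal. The likelihood ratio test also called 0, and DESeq2 called 3 (3.62% of all genes). The median log2 fold change of red over non-red was 0.02, with 22 members positive and 22 negative, and fitted values ran from -1.07 to 1.06. Taken by replicate, the middle ratio was -0.08 (log2, replicate 1) and 0.09 (log2, replicate 2), and 38 members were within 2-fold in both. Red and non-red libraries did not overlap for 4 members (9.09%), against 19.1% of all genes. A gene whose replicates lie apart cannot also have its colors apart. The replicates lay apart for 79.5% of members, and for 31.1% (lower) and 30.9% (higher) of all genes. The 2 color shares therefore cannot be compared as a measure of color difference. The sign was the same in both replicates for 20 members, 10 positive and 10 negative, and for 3026 of all 6140 genes.

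**Figure D5:**
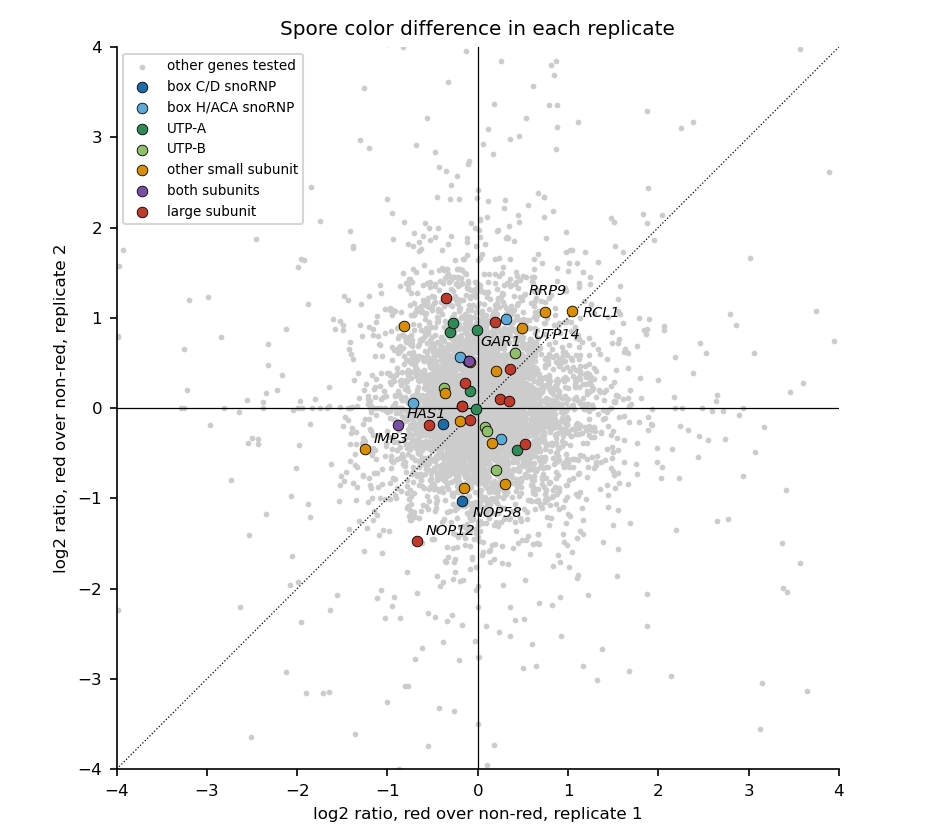
Log2 ratio of red over non-red spores in replicate 1 (horizontal) and replicate 2 (vertical) for the members, colored by group, and for the other genes tested in gray, a few of which lie outside the axes. The members scatter around 0, with medians of -0.08 and 0.09, and RCL1 and RRP9 at the upper right.

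The members named for color are the 4 with the smallest p in each direction. RCL1 was at 146 CPM in red and 70.9 CPM in non-red spores of replicate 1 and at 81.4 and 38.4 CPM in those of replicate 2, log2 ratios of 1.04 and 1.08. RRP9 was at 95.4 and 56.9 CPM and then at 57.4 and 27.3 CPM, log2 ratios of 0.74 and 1.07. Red libraries were above non-red libraries for both genes, with adjusted p-values of 1 in edgeR's quasi-likelihood test and 0.000159 and 0.0269 in DESeq2. NOP12, which binds the precursor of the large subunit rRNA, was at 52.4 CPM in red and 83.4 CPM in non-red spores of replicate 1 and at 26.1 and 73.0 CPM in replicate 2, log2 ratios of -0.67 and -1.48 (adjusted p = 1 in edgeR and 0.0325 in DESeq2). IMP3 was at 22.0 and 52.5 CPM and then at 29.3 and 40.3 CPM, log2 ratios of -1.25 and -0.46. Red libraries were below non-red libraries for NOP12 and IMP3. GAR1 and UTP14 had positive ratios in both replicates (0.31 and 0.99, 0.49 and 0.89), and NOP58 and HAS1 had negative ones (-0.18 and -1.03, -0.88 and -0.18), with overlap between the colors for each of these 4 genes.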

How the data were processed

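RNA of sorted spores was sequenced in 4 libraries. Per the study's methods and the labels, reads were aligned with STAR 2.7.3a to the R64 genome with the marker sequences added and assigned to features with featureCounts, and the authors deposited 1 table of estimated counts that need not be whole (61.7% to 69.3% of the nonzero values per library are not). How fractions arose and whether strand was used is not given in the sources used here. Counts were rounded, kept by edgeR's filterByExpr (6140 genes), scaled by TMM and fitted in edgeR 4.0.16 (R 4.3.3) with color and replicate number as terms. The quasi-likelihood test was used in place of the likelihood ratio test because the latter made more false calls on simulated counts. Those counts were drawn independently for each library, with only the compared term changed, so they hold no pairing of libraries by sporulation. P-values were adjusted by Benjamini-Hochberg over all genes, with a threshold of 0.05. For fitted log2 fold changes the prior count was 0.125, and 0.125 CPM was added before taking ratios within one color or replicate. The replicate number pairs libraries from 1 sporulation, per the study's methods, and the deviations of same-numbered libraries correlated (r = 0.54 over 6140 genes). With 2 libraries per color, precision is limited by their number, and the SE is that of the 2 ratios.

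The 44 members and all lists were chosen with earlier results of these data known. Members are described in full where they passed the FDR (at most 12 by p, the rest in brief) or were among the 4 smallest p in each direction, the 4 highest and 4 lowest per kb, and the highest of each group, and of other lists at most 2 genes by p. Of the 7132 features 6047 matched the RefSeq annotation of R64. No member repeats a 50-base word elsewhere in the genome or overlaps another gene of that annotation. Alternatives were DESeq2 1.42.0, other scalings, filters, priors and thresholds, and leaving out each library. Scripts used Python 3.11.15 with pandas 2.3.3.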

Additional observations from a re-analysis of the deposited data

Results flagged for a closer look

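For 6 members the log2 ratio of replicate 2 over replicate 1 had opposite signs in the colors, and this difference was not tested. It was 0.20 in red and -0.57 in non-red spores for NOP10, 0.14 and -0.73 for UTP9, -0.0344 and 0.32 for UTP6, 0.41 and -0.38 for IMP3, 0.0472 and -1.52 for NOP4, and -0.52 and 0.40 for NOP16. None of the 6 passed the FDR between replicates. The median log2 ratio of red over non-red across the 44 members also had opposite signs, -0.0837 in replicate 1 and 0.0892 in replicate 2, which likewise was not tested.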

How the results depend on the processing

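The count of members lower in replicate 2 (18) was 28 with the likelihood ratio test, 34 with DESeq2 and 31 at an FDR of 0.1, and ran from 10 (without non-red replicate 1) to 22 when 1 library was left out, with 11 without red replicate 1. Over all 6140 genes the calls in either direction numbered 1156 in the main fit. They numbered 1604 with the likelihood ratio test, 2706 with DESeq2, 1573 at an FDR of 0.1 and 1605 with library totals alone. The members' median log2 fold change of -1.02 ran from -1.15 (without red replicate 2) to -0.93. RNA polymerase I genes called (3) were 5 with the likelihood ratio test, library totals alone or an FDR of 0.1, 6 with DESeq2 and 2 to 5 with a library left out. Other small subunit factors (5) were 10, 13, 8 and 10 with the likelihood ratio test, DESeq2, library totals alone and an FDR of 0.1, and 1 to 7 with a library left out, and other large subunit factors (9) were 24 with DESeq2 and 1 to 11 with a library left out.

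The count of members called between colors (0) was 3 with DESeq2. With a library left out the color fit has no block, so the replicates weigh unequally in it by construction, and the median of 0.02 ran from -0.62 (without red replicate 1) to 0.68 (without non-red replicate 1), with 0.40 without red replicate 2 and -0.53 without non-red replicate 2. Signs then turned for GAR1 (-0.53 to 1.94), UTP14 (-0.44 to 1.88), NOP58 (-2.35 to 0.97) and HAS1 (-2.19 to 1.20), none of them called. Without the replicate block 0 members were called between colors, so the pairing changed no call there. Without the color term 23 members were called between replicates, among 1266 of all genes called in either direction. Other scalings, filters, the prior count and unrounded counts, the last added after seeing the data, left both counts of members within 1.5 times. For each of the 18, direction held in every fit.

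Each member had at least 563 reads in every library. There were 2 libraries per color and 2 per replicate, and the replicate comparison rests on 1 sporulation on each side.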
